A study of Mus musculus with 30 samples.

Results

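Glutathione S-transferases are the enzymes that join glutathione to reactive electrophiles, among them drug metabolites and the aldehydes released when lipids are oxidised. The cytosolic enzymes fall into classes named by Greek letters (alpha, mu, pi, theta and others), and the kappa enzyme sits in mitochondria and peroxisomes. Liver is known for a high content of these proteins, which feed conjugates into export pumps and mercapturate formation. In fat the alpha-class enzyme Gsta4 is known for clearing 4-hydroxynonenal, and Gstk1 is also known as a factor in the assembly of adiponectin.

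The 10 members described here were chosen by gene symbol in the deposited expression table, which listed 55357 genes. They were the alpha-class genes Gsta3 and Gsta4, the mu-class genes Gstm1, Gstm2, Gstm3 and Gstm4, the pi-class gene Gstp1, the theta-class genes Gstt1 and Gstt2, and the kappa-class gene Gstk1. Each symbol had 1 row in the table. The other glutathione transferases of the table, 18 genes, served as a comparison list.

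The study measured polyadenylated RNA in 30 libraries of C57BL/6N mice, which fell into 6 groups of 5. Treated animals carried the label HFD+Ime, where the series text spells out the drug as imeglimin, an oral glucose-lowering compound. Their controls carried the label HFD (commonly high-fat diet), and the treated label includes it too, so the diet was common to both. Each treatment was sampled in brown adipose tissue (BAT), in sWAT, an abbreviation commonly read as subcutaneous white fat, and in liver. The labels used here gave no dose, duration, age or sex, and the series text speaks of 4 per arm where the labels list 5. The labels do not tie each library to an animal of its own, and p-values therefore reflect spread among libraries that may be technical. Levels are in TPM, a unit scaled by transcript length in which every library adds up to the same total. The read depth behind them is unknown.

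Tissue labels were checked against marker genes. Ucp1, the uncoupling protein of brown fat, averaged 4652 ± 543 TPM in HFD+Ime BAT and 4863 ± 754 TPM in HFD BAT (SD, n = 5 each), and reached at most 1.53 TPM in any sWAT or liver library. The 15 hepatocyte markers summed to 145988 TPM or more in every liver library. They were also present in fat, at 23.8 to 2556 TPM in BAT and 438 to 1826 TPM in 9 of the 10 sWAT libraries, while HFD+Ime sWAT replicate 88 had 23437 TPM. That library also held 2026 TPM of 11 B and T cell markers, against 17.8 TPM or less in the other sWAT libraries, and its 8 adipocyte markers summed to 22405 TPM, against 32158 TPM or more. Among BAT libraries, HFD+Ime replicate 94 held 6079 TPM and HFD replicate 79 held 6946 TPM of 13 skeletal muscle markers. In whole tissue, fewer cells of a type and less RNA per cell cannot be told apart.

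On the GRCm39 build the 4 mu-class members lie in 1 cluster on the minus strand of chromosome 3, in the order Gstm3 (chr3:107871012-107876599), Gstm2 (chr3:107889018-107893769), Gstm1 (chr3:107919571-107925289) and Gstm4 (chr3:107947724-107952210). The theta genes Gstt1 (chr10:75619647-75634418) and Gstt2 (chr10:75666948-75673258) also neighbour each other on the minus strand of chromosome 10. Gsta3 is at chr1:21310813-21335885 (plus strand), Gsta4 at chr9:78090056-78116631 (plus strand), Gstp1 at chr19:4085407-4087985 (minus strand) and Gstk1 at chr6:42222869-42227381 (plus strand). Family members resemble one another in sequence, so the authors' read assignment could share reads between them. In GENCODE transcripts a stretch of 361 of the 821 bases of Gstp1 was 100% identical to Gstp2. Gstm1 matched the pseudogene Gstm2-ps1 at 97.9% over 657 bases, Gstm3 matched Gstm1 at 91.3% over 597 bases, and Gstm2 matched Gstm6 at 89.1% over 531 bases. Gsta3, Gsta4, Gstt1 and Gstt2 had no match above 78.8%.

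Many glutathione transferase promoters carry an antioxidant response element, the site at which NRF2 with small MAF proteins acts. RefSeq promoter windows (250 bases before the annotated start, GRCm38.p6) were found for 8 of the 10 members, in 10 windows. A search on both strands for TGACNNNGC, the antioxidant response element core (GCNNNGTCA on the other strand), and for TGANTCAGC, a site of NRF2-type proteins with MAF (GCTGANTCA on the other strand), matched 2 of the 10 windows. The core was found in 10.2% and the second motif in 1.02% of 32851 mouse windows of this length. Gsta3 is shown because it had a match to the core, TGACATTGC, 121 to 113 bases before the start. Gstp1 is shown because it had the match TGAGTCAGC, 74 to 66 bases before the start. Gstt1 is shown as the member with the largest fold change in sWAT, and its window held neither motif. The sequences run 5′ to 3′ on the strand of the gene, at chr1:21240335-21240584 (plus), chr19:4037913-4038162 (minus) and chr10:75797732-75797981 (minus), and capitals mark the motif match.
Gsta3: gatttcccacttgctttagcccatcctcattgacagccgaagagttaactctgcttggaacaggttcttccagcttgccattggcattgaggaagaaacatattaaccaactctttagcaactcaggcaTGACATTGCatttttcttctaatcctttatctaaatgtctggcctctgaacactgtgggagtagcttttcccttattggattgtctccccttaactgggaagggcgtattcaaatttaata
Gstp1: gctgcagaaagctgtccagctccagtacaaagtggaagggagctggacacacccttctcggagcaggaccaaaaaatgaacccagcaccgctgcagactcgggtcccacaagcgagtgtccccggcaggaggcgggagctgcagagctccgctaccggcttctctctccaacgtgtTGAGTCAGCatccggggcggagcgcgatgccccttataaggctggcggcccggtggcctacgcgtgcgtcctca
Gstt1: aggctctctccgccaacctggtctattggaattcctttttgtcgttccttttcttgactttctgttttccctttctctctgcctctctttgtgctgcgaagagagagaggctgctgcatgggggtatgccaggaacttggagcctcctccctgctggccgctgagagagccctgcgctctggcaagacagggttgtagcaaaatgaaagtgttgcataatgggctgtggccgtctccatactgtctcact

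The family had the same leading gene in the 3 tissues, while the shares of Gstm2, Gsta3 and Gsta4 differed between them. In HFD mice the 10 members together summed to 464 ± 47.4 TPM in BAT, 1167 ± 246 TPM in sWAT and 4787 ± 775 TPM in liver (SD, n = 5 each). Gstm1 held the largest mean share of this sum in each tissue, 35.6 ± 3.21% in BAT, 37.4 ± 4.92% in sWAT and 38.3 ± 4.01% in liver. Gstp1 came next in BAT (20.9 ± 2.35%) and in liver (21.9 ± 4.58%), whereas Gstm2 was second in sWAT (21.1 ± 1.65%). Gsta3 made up 1.50 ± 0.737% in BAT, 3.37 ± 1.25% in sWAT and 19.3 ± 2.26% in liver, and Gsta4 made up 14.0 ± 1.48% in BAT, 2.20 ± 0.918% in sWAT and 1.48 ± 0.199% in liver.

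**Figure D1:**
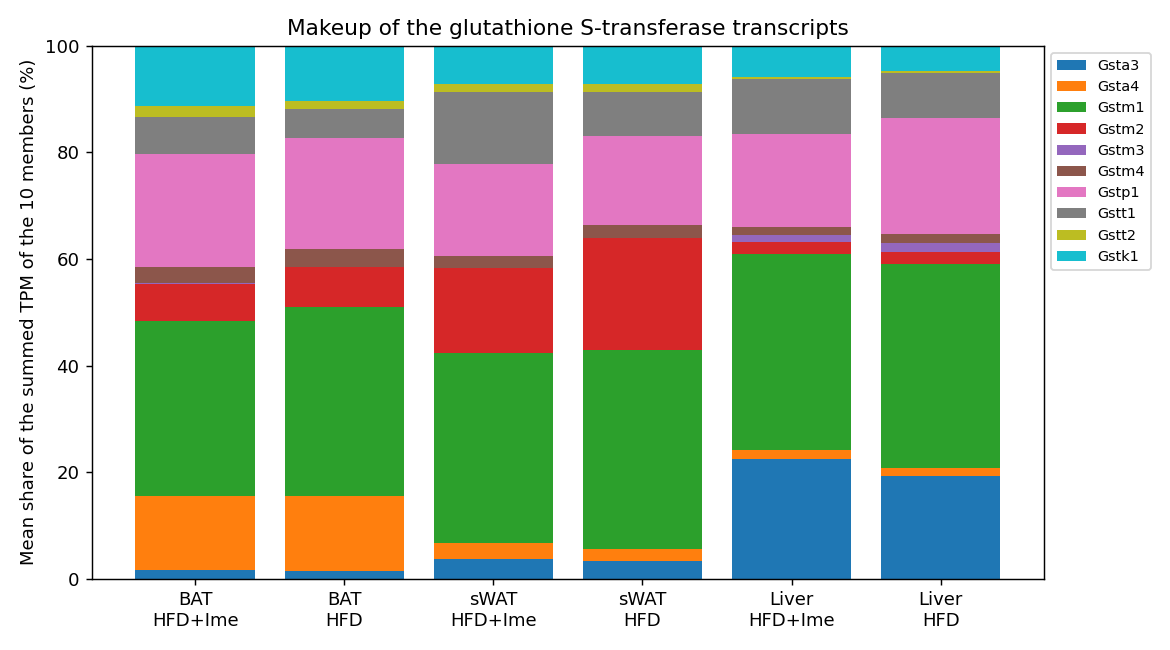
Mean share of each of the 10 genes in the summed TPM of the 10, as stacked bars in percent, for HFD+Ime and HFD libraries of BAT, sWAT and liver (5 libraries a bar). Gstm1 is the widest band in all 6 bars, Gsta3 is wide in liver only, and Gstm2 is widest in sWAT.

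Between tissues on HFD, most members were lower in both fats than in liver, with Gsta4 (BAT), Gstm2 (sWAT) and Gstt2 (sWAT) as the exceptions. BAT was set against liver with limma on log2(TPM + 1), and 9 of the 10 members were called lower at an adjusted p under 0.05 and 0 higher. Of all 14023 genes tested 44.4% were called lower and 30.2% higher. The median log2 difference was -2.81 over the members and -0.16 over all genes. In sWAT against liver 8 members were called lower and 1 higher, against 14.9% lower and 76.1% higher among all genes. The members' median was -1.78 while that of all genes was 1.03. Gstm3 is among the members called lower in both comparisons, and it passed the filter through its liver levels alone. Because the median of all genes lay away from 0, each difference was also computed after median-ratio scaling, and calls that this changed are given below.

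Gsta3, an alpha-class enzyme that in mouse liver conjugates the epoxide of aflatoxin, had a steep gradient over the 3 tissues. In HFD mice it had 7.16, 10.1, 8.11, 0.966 and 9.40 TPM in BAT, 74.3, 56.9, 24.2, 26.7 and 24.7 TPM in sWAT, and 976, 936, 925, 842 and 876 TPM in liver. The 3 tissues did not overlap. The log2 difference was -7.02 for BAT minus liver (SE 0.412, limma adjusted p = 1.23e-10), -4.59 for sWAT minus liver (adjusted p = 1.67e-08) and -2.44 for BAT minus sWAT (adjusted p = 3.27e-05).

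Hepatocyte transcripts were at their extremes in the BAT libraries where Gsta3 was, and in sWAT in 1 library. The lowest Gsta3 values in BAT, 0.966 TPM in HFD replicate 80 and 1.65 TPM in HFD+Ime replicate 88, were in the libraries with the lowest hepatocyte marker sums, 23.8 and 31.9 TPM. The highest, 13.0 TPM in HFD+Ime replicate 94, was in the library with the highest sum, 2556 TPM. In sWAT the highest value, 124 TPM, was in HFD+Ime replicate 88, the library with 23437 TPM of hepatocyte markers. The other 9 sWAT libraries showed no such order, with 56.9 TPM of Gsta3 at a sum of 520 TPM in HFD replicate 76 and 40.6 TPM at 1826 TPM in HFD+Ime replicate 89. Per 1000 TPM of those markers Gsta3 had 4.50 to 6.68 TPM in liver libraries, 5.07 to 51.7 TPM in BAT and, in sWAT, 5.28 TPM in replicate 88 and 22.2 to 109 TPM in the other 9. All 15 hepatocyte markers averaged 1 TPM or more in both BAT groups, and their part in the Gsta3 values was not tested.

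**Figure D2:**
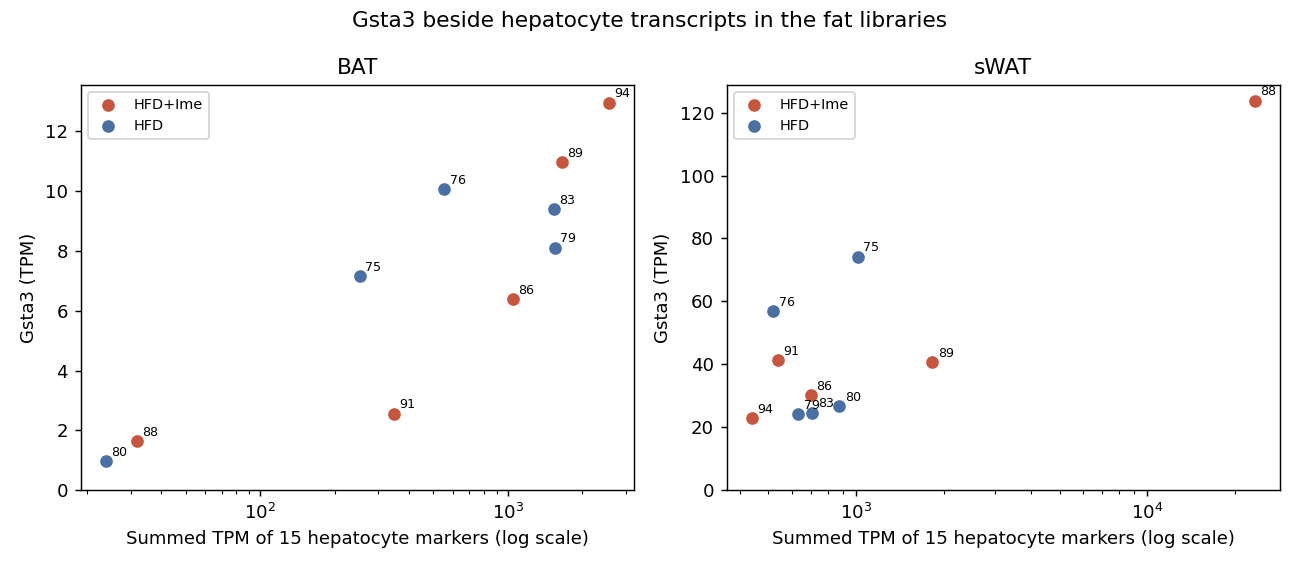
Gsta3 level (TPM, linear axis) against the summed TPM of 15 hepatocyte markers (log axis) in each BAT library (left) and sWAT library (right), with HFD+Ime and HFD libraries coloured and labelled by replicate number. BAT replicates 80 and 88 are low on both axes, and sWAT replicate 88 lies far to the right of the other sWAT libraries at 124 TPM.

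Gstm3, a mu-class gene, was nearly restricted to liver among these tissues. In HFD mice it had 0.0743, 0.106, 0.714, 0 and 0.304 TPM in BAT, 0, 0, 0, 0 and 0.187 TPM in sWAT, and 68.7, 138, 69.3, 62.9 and 93.8 TPM in liver. Every fat library was below every liver library. The log2 difference from liver was -6.11 in BAT (SE 0.192, limma adjusted p = 3.54e-14) and -6.34 in sWAT (adjusted p = 1.43e-14), on a log2(TPM + 1) scale that understates differences of low genes. Gstm3 passed the filter of this fit through its liver libraries alone. Its p-values are therefore no support beyond the levels above. BAT and sWAT differed by 0.23 (limma adjusted p = 0.258), or by 1.07 with a pseudocount of 0.1 (adjusted p = 0.0454). All HFD fat libraries were below 1 TPM, so this comparison reads values at the floor and depends on the pseudocount. It gives no order of BAT and sWAT.

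Gsta4 was the member whose BAT level was close to that of liver. It had 64.7, 70.1, 62.6, 66.1 and 58.3 TPM in HFD BAT, 21.9, 18.3, 35.1, 21.7 and 23.8 TPM in HFD sWAT and 85.6, 100, 62.5, 47.7 and 64.3 TPM in HFD liver. BAT lay within the range of liver and above every sWAT library. BAT minus liver was -0.12 (95% interval -0.49 to 0.26, limma adjusted p = 0.566) and 0.13 with median-ratio scaling, so no direction can be given. BAT minus sWAT was 1.41 (SE 0.178, adjusted p = 1.15e-06) and sWAT minus liver -1.52 (adjusted p = 4.49e-07).

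Gstm2, a mu-class gene, was highest in sWAT. HFD sWAT libraries had 271, 286, 203, 220 and 235 TPM, HFD BAT libraries had 33.4, 42.2, 34.8, 32.2 and 29.9 TPM, and HFD liver libraries had 79.9, 131, 89.2, 108 and 95.5 TPM. None of the 3 ranges overlapped. BAT minus sWAT was -2.78 (SE 0.129, limma adjusted p = 4.54e-12) and BAT minus liver was -1.50 (adjusted p = 1.66e-08). The sWAT minus liver difference of 1.27 (adjusted p = 7.32e-08) was 0.05 with median-ratio scaling (adjusted p = 0.687), so the order of sWAT and liver rests on the TPM scale.

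Gstm1, Gstp1, Gstt1, Gstm4 and Gstk1 had group means in the order BAT, sWAT, liver from low to high on the TPM scale, and for all but Gstt1 the order of BAT and sWAT turned with median-ratio scaling. Gstm1, the most abundant member, averaged 166 ± 30.9 TPM in HFD BAT, 445 ± 152 TPM in HFD sWAT and 1847 ± 426 TPM in HFD liver (SD, n = 5 each). Gstp1, the pi-class enzyme, averaged 96.1 ± 8.68 TPM in HFD BAT, 192 ± 22.6 TPM in HFD sWAT and 1063 ± 348 TPM in HFD liver. Gstt1, a theta-class enzyme that acts on small halogenated hydrocarbons, averaged 25.8 ± 4.52 TPM in HFD BAT, 96.5 ± 22.7 TPM in HFD sWAT and 391 ± 10.9 TPM in HFD liver. Each of the 5 was called lower in BAT than in liver, with log2 differences of -3.46 for Gstm1, -3.40 for Gstp1, -3.89 for Gstt1, -2.21 for Gstm4 and -2.19 for Gstk1.

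In sWAT against liver the same 5 were called lower, by -2.08 for Gstm1, -2.41 for Gstp1, -2.04 for Gstt1, -1.43 for Gstm4 and -1.44 for Gstk1 on the log2 scale. Gstt2, the second theta-class gene, averaged 6.38 ± 1.19 TPM in HFD BAT, 16.2 ± 2.27 TPM in HFD sWAT and 19.4 ± 3.56 TPM in HFD liver. It was called lower in BAT than in liver (-1.46, limma adjusted p = 6.51e-08), while sWAT and liver overlapped (-0.24, adjusted p = 0.118). With median-ratio scaling (-1.38) or without liver replicate 80 (-0.33, adjusted p = 0.0307) sWAT was called lower than liver.

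In BAT against sWAT the direction of several members turned with the scaling. On the TPM scale 8 members were called lower in BAT and 1, Gsta4, higher, beside 83.7% lower and 6.57% higher among all genes, whose median was -1.26. Relative to that median, Gsta4 was higher by 2.67, Gstk1 by 0.51 and Gstm4 by 0.48, while Gstm2 differed by -1.52, Gsta3 by -1.17 and Gstt1 by -0.58. After median-ratio scaling Gsta3, Gstm2 and Gstt1 were still called lower in BAT (-1.08, -1.32 and -0.40) and Gsta4 higher (2.83). Gstk1 (0.71), Gstm4 (0.62) and Gstp1 (0.48) were then called higher in BAT, opposite to their TPM differences of -0.75, -0.79 and -0.99. Gstm1 (0.10, adjusted p = 0.665) and Gstt2 (0.11, adjusted p = 0.470) also turned sign and were no longer called.

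**Figure D3:**
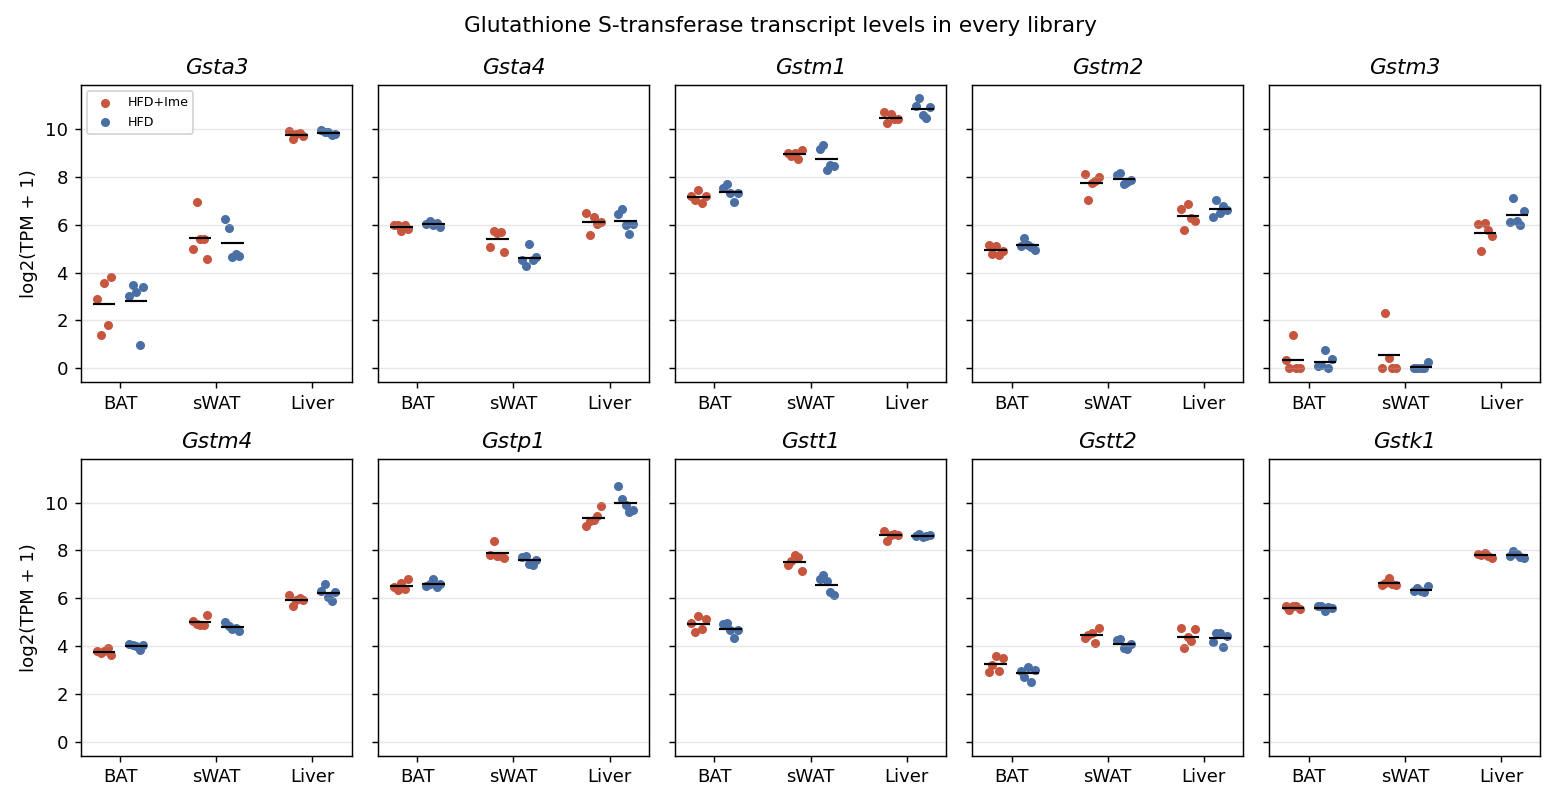
Level of each of the 10 genes in every library as log2(TPM + 1), with BAT, sWAT and liver side by side, HFD+Ime left of HFD in each, points for libraries and a black line for the group mean on this scale. Gsta3 and Gstm3 show the widest gap between fat and liver, Gsta4 is level in BAT and liver, and in sWAT all HFD+Ime points of Gstt1 lie above the HFD points.

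Imeglimin was then compared with HFD alone within each tissue, over all genes tested and with Benjamini-Hochberg adjustment. No member passed an adjusted p of 0.05 in limma's test in any of the 3 tissues. In sWAT this was 0 of 9 members tested, beside 0.0146% of 13736 genes called, in liver 0 of 10, beside 0% of 11516 genes, and in BAT 0 of 9, beside 0.868% of 11402 genes. Gstm3 was not tested in either fat because fewer than 5 libraries reached 1 TPM. At an unadjusted p under 0.05 there were 5 of 9 members in sWAT (11.3% of all genes), 4 of 10 in liver (4.2%) and 2 of 9 in BAT (24.3%).

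**Figure D4:**
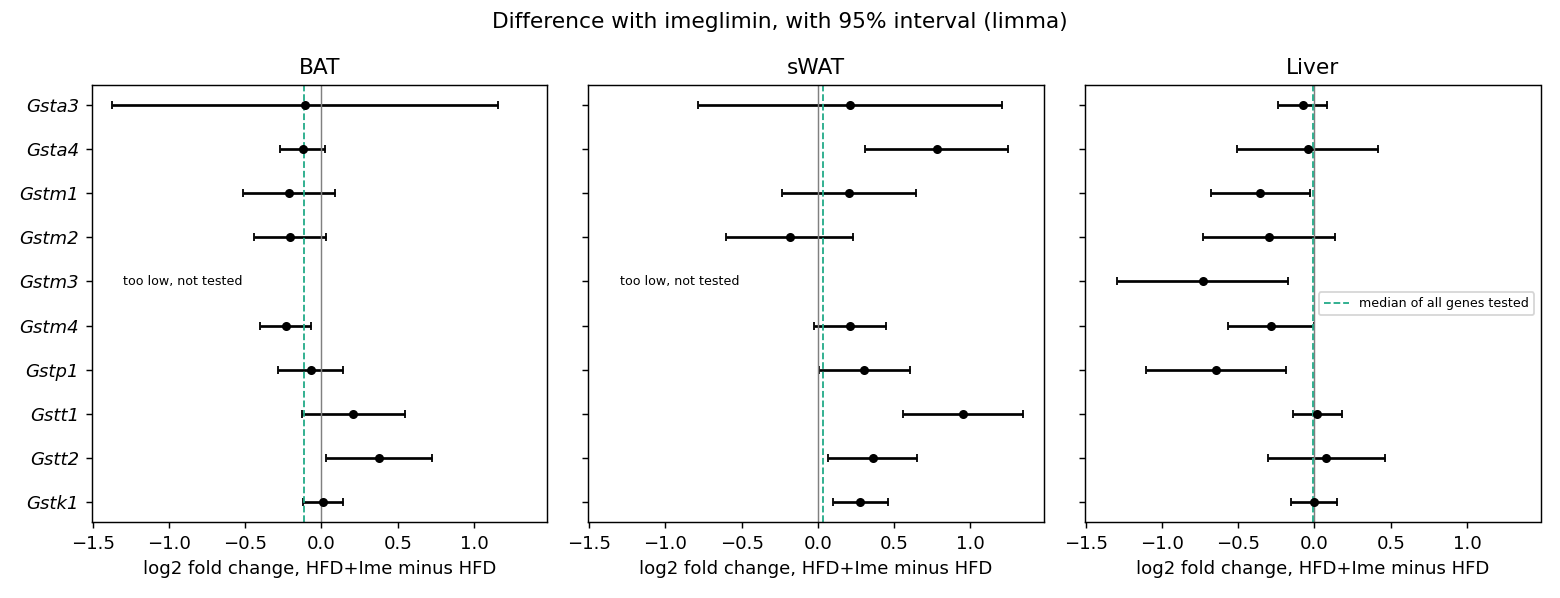
Log2 fold change of each gene, HFD+Ime minus HFD, with its 95% interval from limma, in BAT, sWAT and liver, and the median of all genes tested as a dashed line. In sWAT 8 of 9 points are above 0, led by Gstt1 (0.95) and Gsta4 (0.78), and in liver the points of Gstm3 (-0.73) and Gstp1 (-0.64) are farthest below 0. The sign of Gsta3, Gsta4 and Gstp1 in BAT and of Gstk1 in liver turns with median-ratio scaling.

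In sWAT the theta-class gene Gstt1 had the largest fold change of the family. It had 165, 190, 223, 213 and 139 TPM in HFD+Ime libraries, against 110, 123, 103, 75.8 and 70.1 TPM in HFD libraries. All 5 HFD+Ime values were above the highest HFD value, as in 1.58% of all genes tested. The means were 186 ± 34.6 TPM with HFD+Ime and 96.5 ± 22.7 TPM with HFD (SD, n = 5 each), a ratio of 1.93. The log2 fold change was 0.95 (SE 0.179, 95% interval 0.56 to 1.35), with an unadjusted p of 0.000251 and a limma adjusted p of 0.157. With all 30 libraries in 1 fit, which shares the spread of the 3 tissues, the adjusted p was 0.000624 and 553 genes were called in place of 2.

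Gsta4 in sWAT had 32.4, 52.0, 49.6, 51.2 and 27.6 TPM in HFD+Ime libraries and 21.9, 18.3, 35.1, 21.7 and 23.8 TPM in HFD libraries. Replicates 88, 89 and 91 of HFD+Ime were above every HFD library, and the groups overlapped through HFD replicate 79. The ratio of means was 1.76 and the log2 fold change 0.78 (SE 0.213, limma adjusted p = 0.262, or 0.0206 with all 30 libraries in 1 fit). Gstk1 had 91.9, 98.0, 114, 96.8 and 92.1 TPM in HFD+Ime sWAT and 77.2, 85.0, 78.0, 75.2 and 89.4 TPM in HFD sWAT. Its groups did not overlap, with higher values in HFD+Ime, as in 1.58% of all genes tested. Its log2 fold change was 0.28 (SE 0.0822, limma adjusted p = 0.286, or 0.0196 with all 30 libraries in 1 fit), a smaller ratio of 1.22 than those of Gstt1 and Gsta4.

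The other sWAT members gave smaller differences. Gstt2 had a log2 fold change of 0.36 (limma adjusted p = 0.364), with 4 of 5 HFD+Ime libraries above the highest HFD library. Gstp1 had 0.31 (adjusted p = 0.434), also with 4 of 5 above, and its highest value of 333 TPM was in HFD+Ime replicate 88, without which the fold change was 0.18. Gstm4 (0.21) and Gstm1 (0.20) overlapped, with adjusted p-values of 0.483 and 0.702. Without HFD+Ime replicate 94 Gstm4 was 0.14, and without HFD replicate 79 Gstm1 was 0.09. Gstm2 was -0.18 (adjusted p = 0.711) with HFD+Ime replicate 88 and -0.00409 without it, and Gsta3 was 0.21 with that library and -0.16 without it. The members' median was 0.28, beside 0.04 over all genes.

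The adipocyte marker sum differed between the sWAT groups, while the other marker sums given here overlapped. Leaving out replicate 88, the 8 adipocyte markers summed to 36083 to 41758 TPM in HFD+Ime sWAT and to 32158 to 35001 TPM in HFD sWAT, with no overlap. Lep, 1 of these 8 markers, overlapped, at 3813 to 5704 TPM in HFD+Ime and 4351 to 6149 TPM in HFD. Without that library the 6 endothelial markers summed to 597 to 643 TPM in HFD+Ime and to 521 to 906 TPM in HFD. The 8 macrophage markers summed to 494 to 1005 TPM in HFD+Ime without it and to 525 to 1311 TPM in HFD. The part of cell makeup in the sWAT differences was not tested. Gstt1 in replicate 88, at 190 TPM, lay within the range of the other HFD+Ime libraries. That library held 23437 TPM of hepatocyte markers, and HFD+Ime liver averaged 398 TPM of Gstt1. Gsta4 and Gstk1 had 52.0 and 98.0 TPM in the same library, and averaged 69.2 and 221 TPM in HFD+Ime liver. The part of hepatocyte RNA in these values of replicate 88 was not tested.

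**Figure D5:**
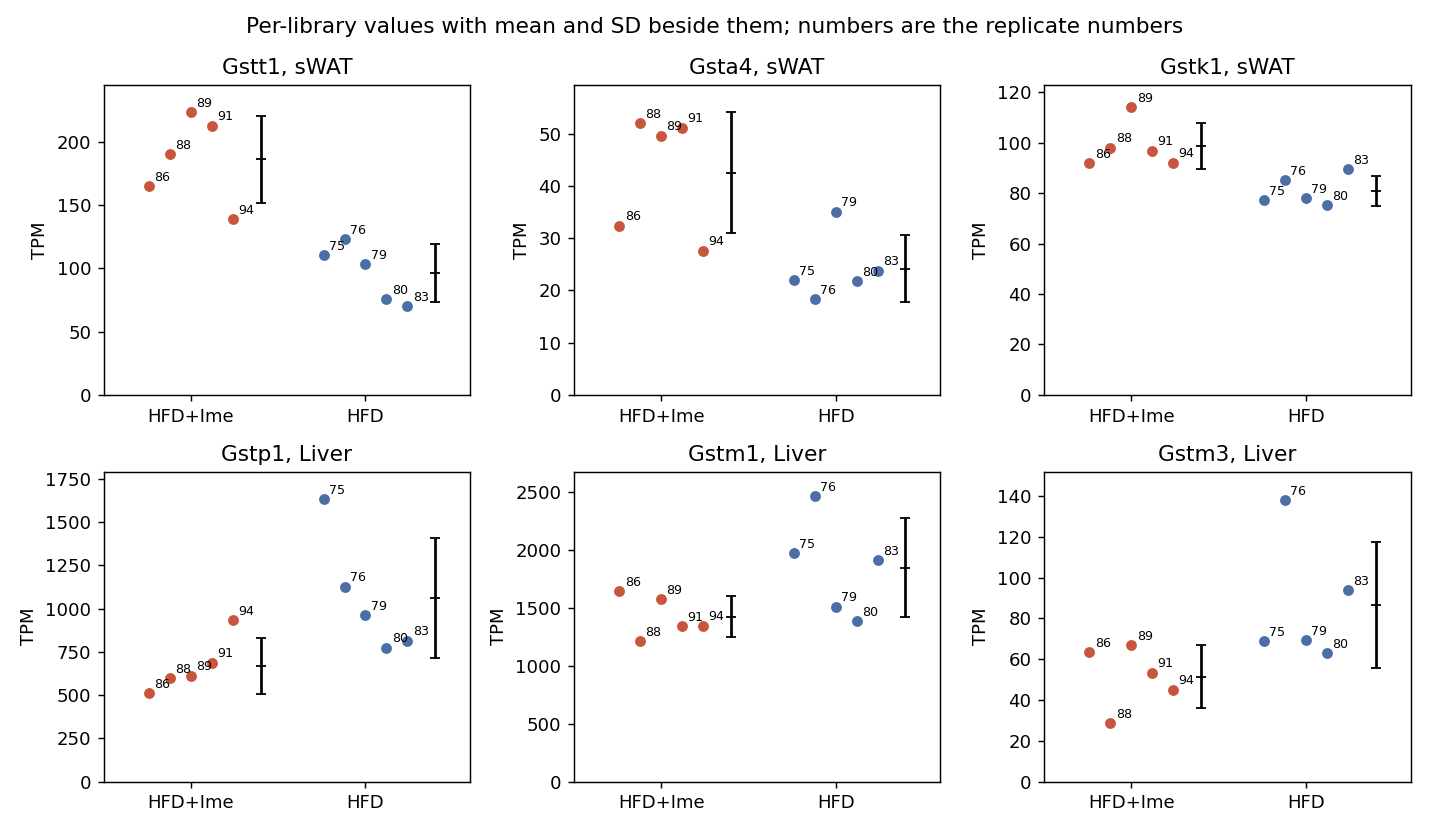
TPM in each library, labelled by replicate number, for Gstt1, Gsta4 and Gstk1 in sWAT and for Gstp1, Gstm1 and Gstm3 in liver, with HFD+Ime left of HFD, and the mean and SD beside each group. In sWAT the HFD+Ime libraries of Gstt1 (139 to 223 TPM) and of Gstk1 (91.9 to 114 TPM) do not overlap the HFD libraries, and in liver all 3 genes overlap.

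In liver the pi-class gene and the mu-class cluster had negative fold changes that did not pass the adjusted threshold. Gstp1 had 513, 597, 613, 687 and 932 TPM in HFD+Ime liver, against 1634, 1127, 963, 775 and 815 TPM in HFD liver. Replicates 86, 88, 89 and 91 of HFD+Ime were below every HFD library, and replicate 94 lay among them. The means were 668 ± 160 TPM with HFD+Ime and 1063 ± 348 TPM with HFD (SD, n = 5 each), a ratio of 0.629, with a log2 fold change of -0.64 (SE 0.209, unadjusted p = 0.0103, limma adjusted p = 0.984). The lowest adjusted p of any gene in liver was 0.805.

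Gstm3 had 63.5, 28.5, 66.9, 53.3 and 45.1 TPM in HFD+Ime liver and 68.7, 138, 69.3, 62.9 and 93.8 TPM in HFD liver. All 5 HFD+Ime libraries were below the HFD mean, and the groups overlapped near 63 TPM. Its log2 fold change of -0.73 (SE 0.256, limma adjusted p = 0.984) was the largest in size of the family in liver. Gstm1 had 1645, 1211, 1576, 1342 and 1346 TPM in HFD+Ime liver and 1972, 2460, 1510, 1382 and 1909 TPM in HFD liver, a log2 fold change of -0.35 (SE 0.149, limma adjusted p = 0.984). Gstm2 (-0.30) and Gstm4 (-0.28) of the same cluster also overlapped, and without HFD+Ime replicate 88 Gstm2 was -0.16. Gsta3 (-0.08), Gsta4 (-0.04), Gstk1 (-0.00140), Gstt1 (0.02) and Gstt2 (0.08) were close to 0, and the interval for Gstt1 ran from -0.14 to 0.18.

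Several liver members had their extreme values in the same library. HFD+Ime replicate 88 had the lowest value of its group for 8 of the 10 members, with Gstp1 and Gstk1 as exceptions. Among HFD livers replicate 76 was highest for 7 members and replicate 80 lowest for 7. The members' median fold change in liver was -0.18, beside -0.01 over all genes.

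In BAT the family showed small differences in both directions. Gstm4 had 13.1, 12.1, 13.1, 14.2 and 11.4 TPM in HFD+Ime BAT and 16.1, 15.7, 15.3, 13.2 and 15.7 TPM in HFD BAT. HFD replicate 80 was the only HFD library inside the HFD+Ime range. Its log2 fold change was -0.23 (SE 0.0748, limma adjusted p = 0.102), and -0.10 with median-ratio scaling. Gstt2 had 6.65, 8.44, 10.9, 6.72 and 10.5 TPM in HFD+Ime BAT and 6.78, 5.68, 7.73, 4.70 and 7.01 TPM in HFD BAT, a log2 fold change of 0.38 (SE 0.157, limma adjusted p = 0.174) with overlapping groups.

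Gstm1 (-0.21), Gstm2 (-0.21) and Gsta4 (-0.12) had negative values in BAT, where the median of all genes tested was -0.12, and Gstt1 (0.21) a positive one. The limma adjusted p-values of these 4 ran from 0.254 to 0.420. With median-ratio scaling Gstm1 was -0.07, Gstm2 -0.06, Gsta4 0.02 and Gstt1 0.35, and the adjusted p-values ran from 0.346 to 0.914. Gstp1 (-0.07) and Gstk1 (0.01) were close to 0. Gsta3 was -0.11 with an SE of 0.572 and an interval from -1.37 to 1.16, and its extreme BAT values lay in the libraries with the extreme hepatocyte marker sums given above. The members' median was -0.11. Skeletal muscle markers averaged 1 TPM or more for all 13 listed genes in both BAT groups, and without replicates 94 and 79 no member passed and 0 genes were called in all.

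Whether the response to imeglimin differed between tissues was tested as a difference of fold changes over all 30 libraries. No member passed in the 3 comparisons, beside 0.127% of 14953 genes for sWAT minus liver, 2.05% for BAT minus sWAT and 0.167% for BAT minus liver. At an unadjusted p under 0.05 there were 7 of 10 members for sWAT minus liver (10.2% of all genes), 4 for BAT minus sWAT (18.6%) and 1 for BAT minus liver (10.2%). The 7 include Gstm3 (1.23, limma unadjusted p = 0.0169), which entered this fit through its liver levels. It was too low to test in either fat, and its highest sWAT value, 3.93 TPM, was in HFD+Ime replicate 88. Its difference is therefore no measure of a response in sWAT. For Gstt1 the response was larger in sWAT than in liver by 0.93 (SE 0.214, limma adjusted p = 0.0675) and differed by -0.74 for BAT minus sWAT (adjusted p = 0.0665). For Gsta4 the same differences were 0.82 (SE 0.271, adjusted p = 0.252) and -0.90 (adjusted p = 0.0770), and for Gstp1 they were 0.95 (SE 0.235, adjusted p = 0.0965) and -0.37 (adjusted p = 0.400). With the replicate number as a block Gstt1 passed in BAT minus sWAT (-0.74, adjusted p = 0.0470). Omission of single libraries also made members pass. Gstt1 passed in sWAT minus liver without sWAT replicate 86 or 94 (up to 1.03, lowest adjusted p = 0.0229) and in BAT minus sWAT without sWAT replicate 76 or 94 (to -0.84, lowest adjusted p = 0.0298). Gsta4 passed in BAT minus sWAT without sWAT replicate 86 or 94 (to -1.04, lowest adjusted p = 0.0338), and Gstp1 in sWAT minus liver without liver replicate 94 (1.08, adjusted p = 0.0452).

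The other glutathione transferases gave no call with imeglimin either, at 0 of 14 tested in sWAT, 0 of 12 in liver and 0 of 13 in BAT. Mgst1, a membrane-bound enzyme of a separate superfamily, was the most abundant transferase of all, at 228 ± 27.8 TPM in HFD+Ime BAT and 238 ± 16.4 TPM in HFD BAT, 867 ± 43.6 TPM in HFD+Ime sWAT and 832 ± 53.2 TPM in HFD sWAT, and 2892 ± 139 TPM in HFD+Ime liver and 3084 ± 154 TPM in HFD liver. In HFD sWAT the membrane-bound Mgst3 averaged 481 ± 62.2 TPM, the zeta-class gene Gstz1 436 ± 13.9 TPM, Ltc4s, leukotriene C4 synthase, 324 ± 37.4 TPM, and the omega-class gene Gsto1 135 ± 12.4 TPM (SD, n = 5). Ptges (21.9 ± 5.83 TPM) and Mgst2 (13.2 ± 2.11 TPM) passed 10 TPM in HFD sWAT but not in HFD BAT or HFD liver. In the mu cluster Gstm6 averaged 1.69 ± 0.686 TPM in HFD BAT, 4.44 ± 1.69 TPM in HFD sWAT and 109 ± 7.71 TPM in HFD liver, and Gstm7 7.12 ± 1.89 TPM, 7.33 ± 1.84 TPM and 80.8 ± 5.03 TPM in those tissues. Gstm5 instead averaged 28.0 ± 3.43 TPM in HFD BAT, 39.1 ± 3.93 TPM in HFD sWAT and 11.2 ± 1.40 TPM in HFD liver.

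Lowest p-values in that list went to Mgst2 (-0.46, limma adjusted p = 0.258) and Gstm6 (0.88, 0.283) in sWAT. Gstm6 was far higher in liver, and its sWAT difference includes HFD+Ime replicate 88, with 23437 TPM of hepatocyte markers. The part of that library in the difference was not tested. In liver the lowest went to Gstp2 (-0.86) and Mgst1 (-0.09), both with an adjusted p of 0.984. In BAT they went to Ltc4s (-0.34, 0.0939) and Gstp2 (-0.32, 0.286). Gstp2, the near copy of Gstp1, averaged 3.56 ± 2.03 TPM in HFD+Ime liver and 7.34 ± 4.22 TPM in HFD liver. HFD liver also held Gsta2 (36.9 ± 24.7 TPM), Gstt3 (34.7 ± 9.87 TPM), Gstp3 (29.5 ± 4.47 TPM) and Gsta1 (13.1 ± 5.86 TPM), each below 10 TPM in both HFD fats.

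Around the transferases, the genes that make, recycle and break down glutathione gave 1 call. G6pdx, glucose-6-phosphate dehydrogenase, a source of the NADPH that reduces glutathione, fell in BAT to 77.1 ± 12.2 TPM with HFD+Ime, against 117 ± 7.98 TPM with HFD (log2 fold change -0.61, SE 0.103, limma adjusted p = 0.0446, 1 of 16 tested, beside 0.868% of all genes). In BAT 24.3% of all genes had a limma unadjusted p under 0.05. The call was lost with no filter (adjusted p = 0.0801), with median-ratio scaling (-0.46, 0.0986), with all 30 libraries in 1 fit (0.0590), without the muscle-rich libraries 94 and 79 together (-0.54, 0.206) and without any 1 of replicates 75, 76, 79, 80, 89, 91 and 94 (-0.62 to -0.53, adjusted p up to 0.135), while the sign was the same in each. This list gave 0 of 20 in sWAT and 0 of 19 in liver, where Chac1, which degrades glutathione, had 14.5 ± 4.90 TPM with HFD+Ime and 6.78 ± 4.13 TPM with HFD (log2 fold change 1.07, adjusted p = 0.984). The glutaredoxin gene Glrx5 came next in liver (-0.14) and first in sWAT (-0.29, adjusted p = 0.403), ahead of Cbs, cystathionine beta-synthase (0.72, adjusted p = 0.404).

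Export pumps and mercapturate enzymes gave 0 of 8 in sWAT, 0 of 7 in liver and 0 of 8 in BAT, with the pump genes Abcc5 at -0.26 (limma adjusted p = 0.0744) and Abcc4 at -0.28 (0.175) in BAT. The lowest p-values of that list were for Nat8 (-0.40) and Abcc3 (-0.12) in liver, both with an adjusted p of 0.984, and for Acy1 (0.33, 0.474) and Dpep1 (-0.28, 0.564) in sWAT. Regulators of transferase genes gave 0 of 12 in sWAT, 0 of 16 in liver and 0 of 13 in BAT. Keap1, the inhibitor of NRF2, had 14.0 ± 1.11 TPM in HFD+Ime BAT and 17.1 ± 1.10 TPM in HFD BAT (-0.27, adjusted p = 0.0684), and Txnrd1, an NRF2 target, had -0.30 there (adjusted p = 0.0675). Stat5b, a transducer of growth hormone signalling, had 45.5 ± 5.58 TPM in HFD+Ime sWAT and 34.5 ± 4.95 TPM in HFD sWAT (0.39, adjusted p = 0.286). Bach1, a repressor at antioxidant response elements, had 26.0 ± 9.61 TPM in HFD+Ime liver and 16.2 ± 3.06 TPM in HFD liver (0.60, adjusted p = 0.984), and Keap1 had -0.13 there. In sWAT Bach1 had 0.74 (adjusted p = 0.496).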

How the data were processed

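Polyadenylated RNA was sequenced from strand-specific libraries, per the labels' protocols. The authors deposited 1 table of TPM values for all 30 libraries. STAR, RSEM and GRCm39 are named in the submitters' processing notes, with no version. TPM is a share of each library, so a change in a few abundant transcripts moves all others, and no depth or counting interval can be had from it. The highest correlation between libraries was 0.995, and 0 pairs were identical.

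Genes reaching 1 TPM in 5 or more libraries of a fit were tested with limma 3.58.1 (R 4.3.3, limma-trend, two-sided) on log2(TPM + 1), with Benjamini-Hochberg adjustment over all genes tested and a threshold of 0.05. Fold changes are on this scale. Each tissue was fitted alone for the imeglimin effect, all 30 libraries together for differences between tissues in that effect, and the 15 HFD libraries together for tissue differences. The script was tested on simulated data.

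The members and lists were chosen with earlier results of these data known. All 10 members are named, and from each pathway list the called genes or, with none called, the 2 of lowest p, plus other transferases of at least 10 TPM in a group. Alternatives were a pseudocount of 0.1, no filter, median-ratio scaling, leaving out each library, the replicate number as a block, all 30 libraries in 1 fit, array weights, and omission of the muscle-rich BAT libraries. Promoters are RefSeq windows on GRCm38.p6, and near copies came from BLAST+ 2.17.0 on GENCODE transcripts. No promoter window was found for Gsta4 or Gstt2.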

Additional observations from a re-analysis of the deposited data

Results flagged for a closer look

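Each of the 60 sets of 5 libraries (10 genes, 6 groups) was checked for a single library far from the rest. The check flagged 6. Chance gives about 1 in 20 for independent values with a normal spread. That rate does not hold for Gstm3 in fat, near 0 TPM, or for sets that share a library. Of the 6 flags, 3 were in sWAT replicate 88 of HFD+Ime. Gsta3 was at 124 TPM there, while the other 4 libraries of the group had 22.9 to 41.2 TPM. Gstp1 was at 333 TPM there, with 206 to 224 TPM in the others. Gstm3 was at 3.93 TPM there, with 0 to 0.346 TPM in the others. This library had 23437 TPM of hepatocyte markers and 2026 TPM of B and T cell markers, and their part in the 3 values was not tested.

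Gstm3 also stood apart in BAT replicate 89 of HFD+Ime, at 1.67 TPM with 0 to 0.270 TPM in the others, and in sWAT replicate 83 of HFD, at 0.187 TPM with 0 in the others. Gstk1 in sWAT replicate 89 of HFD+Ime was at 114 TPM, with 91.9 to 98.0 TPM in the other 4 libraries.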

How the results depend on the processing

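The number of members called with imeglimin stayed at 0 in BAT and liver under every alternative run, and in sWAT under all but 1. With all 30 libraries in 1 fit, 3 sWAT members passed (Gstt1, Gsta4 and Gstk1). Over single omitted libraries the number ran from 0 to 1 for the response in sWAT minus liver and from 0 to 2 for BAT minus sWAT. With the replicate number as a block it was 1 for BAT minus sWAT (Gstt1, -0.74, limma adjusted p = 0.0470) and 0 for sWAT minus liver and BAT minus liver. The numbers recur across tissues. Same-numbered libraries deviated together (r over 0.1) in 7 of 10 pairs for BAT and liver. It was 6 for BAT and sWAT and 6 for sWAT and liver. The median r was 0.150, 0.149 and 0.136. Among the 5 libraries of the same treatment, the own number correlated best in 7, 6 and 5 of 10. That is more often than an even draw among the 5 would give. The labels do not say that a number is an animal, so the main fits used no pairs. The block is the run that takes the number into account.

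Signs of uncalled or scale-bound members turned as follows. With median-ratio scaling the imeglimin effect in BAT was 0.0120 for Gsta3, 0.0203 for Gsta4 and 0.0754 for Gstp1, that in liver 0.00827 for Gstk1, and BAT minus liver 0.0506 for Gsta4. Between HFD tissues it gave 0.13 for Gsta4 in BAT minus liver, and in BAT minus sWAT 0.10 for Gstm1, 0.62 for Gstm4, 0.48 for Gstp1, 0.11 for Gstt2 and 0.71 for Gstk1. Array weights gave 0.0724 for Gsta3 and -0.00505 for Gstk1 in BAT, 0.00425 for Gsta4 and 0.00667 for Gstk1 in liver, and -0.18 for Gsta3 in sWAT. Without the muscle-rich BAT libraries 94 and 79 Gstk1 in BAT was -0.0112.

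Over single omitted libraries the effect ran from -0.56 to 0.22 for Gsta3 and from -0.0261 to 0.0369 for Gstk1 in BAT, and from -0.16 to 0.46 for Gsta3 in sWAT. In liver it ran from -0.178 to 0.0952 for Gsta4, -0.0330 to 0.0484 for Gstk1, -0.0238 to 0.0825 for Gstt1 and -0.0150 to 0.202 for Gstt2. For Gsta4 it ran from -0.219 to 0.0547 in the response of BAT minus liver, and from -0.251 to 0.0131 in HFD BAT minus HFD liver. The cause of these turns was not tested. All genes called in BAT numbered 99, and 101 with a pseudocount of 0.1, 0 with no filter, 5 with median-ratio scaling, 709 with array weights, 398 with all 30 libraries in 1 fit and 0 to 698 over single omitted libraries. In sWAT the 2 calls became 0 with no filter, 1 with median-ratio scaling, 22 with array weights, 553 in the joint fit and 0 to 4 over omitted libraries, and in liver the joint fit gave 2 in place of 0. For responses, sWAT minus liver had 19 calls (2 with a pseudocount of 0.1 or median-ratio scaling, 0 to 128 over omitted libraries), BAT minus sWAT 306 (202 with that pseudocount, 32 with median-ratio scaling, 60 without libraries 94 and 79, 99 to 543 over omitted libraries), and BAT minus liver 25 (5 with no filter, 10 with median-ratio scaling, 9 with the block, 0 without 94 and 79, 3 to 111 over omitted libraries). Between HFD tissues 7 to 10 members were called under every alternative run. The 10, in BAT minus sWAT with a pseudocount of 0.1, include Gstm3, which was below 1 TPM in every HFD fat library. TPM values carry no depth, so low levels such as those of Gstm3 in fat have no counting error beside them.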

Other observations

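For each member, the gene outside the 10 members with the most similar deviations from the group means was sought in the tissue where the member was highest. The measure was Pearson's r over 10 libraries on the log2(TPM + 1) scale, given as a description, since the libraries share their scaling and the gene was picked from all genes tested. In liver Amdhd1, an enzyme of histidine breakdown, came first for Gsta4 (0.95), Gstm1 (0.95) and Gstm4 (0.98). The second gene for Gsta4 was Gsta2 (0.93). Gstm3 was most like Uroc1 (0.96), which also acts in histidine breakdown, and then Hamp2 (0.95). Gsta3 was most like Hnf4aos (0.95) and Gstt1 like Gm27216 (0.97). Gstp1 had the lowest best match among the liver genes, Zfp992 at 0.90, and its second was Mup16, a major urinary protein gene, also at 0.90. Gstm2 in sWAT was most like Fech, ferrochelatase (0.99). In HFD+Ime sWAT Gstm2 had 128 TPM in replicate 88 and 214 to 275 TPM in the others, and r without that library was not computed.

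Variation over the 10 libraries of a tissue, with HFD+Ime and HFD pooled, differed between members. In liver the coefficient of variation was 7.15% for Gstk1, 7.33% for Gstt1 and 7.79% for Gsta3, while it was 38.0% for Gstp1 and 42.9% for Gstm3. In sWAT it was 68.3% for Gsta3, 39.3% for Gsta4 and 38.7% for Gstt1, whose group means had a ratio of 1.93, and 13.1% for Gstk1. In BAT it was 5.53% for Gstk1, 8.01% for Gsta4 and 58.7% for Gsta3. Gstm3, near 0 in both fats, had 168% in BAT and 275% in sWAT.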
